A study of Homo sapiens with 3 samples.

Results

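The breakdown of leucine and the other branched-chain amino acids was followed through 10 genes: BCAT1, BCAT2, BCKDHA, BCKDHB, DBT, BCKDK, IVD, MCCC1, MCCC2 and AUH. They were taken by name, as all probe sets whose gene symbol in the array's annotation is exactly one of these symbols, which gave 25 of the 54675 probe sets. The cells were undifferentiated khES3, a line of human embryonic stem cells (1 line in all), held for 5 hours in complete medium, in medium lacking leucine or in medium lacking lysine. Each of these 3 conditions had 1 Affymetrix array, so no difference below has a replicate check or a p-value.

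Leucine, isoleucine and valine are essential amino acids that share the first steps of their breakdown. A transaminase, BCAT1 in the cytosol or BCAT2 in mitochondria, moves the amino group to 2-oxoglutarate and leaves a branched-chain ketoacid, a reaction that runs in both directions. The mitochondrial branched-chain ketoacid dehydrogenase complex (E1 subunits BCKDHA and BCKDHB, E2 core DBT) then commits the carbon skeleton to oxidation, and the kinase BCKDK switches the complex off by phosphorylating E1. The leucine branch goes on through isovaleryl-CoA dehydrogenase (IVD), the biotin enzyme methylcrotonyl-CoA carboxylase (MCCC1 and MCCC2) and methylglutaconyl-CoA hydratase (AUH) to HMG-CoA.

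Read at the probe set with the highest mean signal, each of the 10 genes stayed within 2-fold of complete medium on both deprived arrays. Known targets of the amino acid response did not. Another DBT probe set did pass 2-fold, at -1.02 after leucine removal and -1.33 after lysine removal. ASNS, the asparagine synthetase gene, had a signal of 2672 in complete medium, 6551 without leucine and 6875 without lysine. The signal of DDIT3, which encodes the stress factor CHOP, was 319, 2830 and 2776 in the same order. None of the 10 genes was 2-fold higher or lower than in complete medium after removal of either amino acid. Over all genes measured, 6.41% passed 2-fold after leucine removal and 9.47% after lysine removal. A count of 0 of 10 therefore does not set these genes apart from the rest. These shares depend on signal level. Of the 10 genes, 7 lie at or above the median level of kept genes, where 0.88% and 1.82% of genes passed. Among genes below that level 12.0% and 17.1% passed. The median log2 difference of the 10 genes was -0.01 after leucine removal and -0.08 after lysine removal, beside 0.01 and 0.00 for all genes. In size, disregarding sign, the median difference was 0.09 after leucine removal and 0.25 after lysine removal, against 0.24 and 0.32 over all genes. Between the deprived arrays it was 0.33, against 0.27 over all genes. The sizes over all genes are not matched for signal level.

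The values are signal intensities summarised by MAS5. Signals below the 40th percentile of their array (54.6 in complete medium, 56.7 without leucine, 62.4 without lysine) were raised to that floor, since dim signals are mostly noise. Of the 25 probe sets, 21 passed the filter on low values (a mean over the 3 arrays at or above the median of all probe sets), and the same number were above the floor on all 3 arrays. All 10 genes kept at least 1 probe set, as did 12961 genes in all. Where a gene had several, the one with the highest mean stood for it. The only error available is the spread between probe sets of the same gene: the SD of the log2 difference was 0.49 for leucine-deprived minus complete (5975 genes), 0.57 for lysine-deprived minus complete (5971 genes) and 0.58 between the deprivations (5969 genes). It was 0.21, 0.30 and 0.29 over the 2016 genes with several probe sets at or above the median level of kept genes. Neither spread covers differences between cultures.

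Of 15 listed markers of undifferentiated stem cells, 13 were measured, all above the floor on all 3 arrays, among them NANOG (15765 in complete medium) and LIN28A (36158). Of 13 genes listed as markers of fibroblasts and feeder cells, 8 were also above the floor on all 3 arrays: COL1A1 (11552 in complete medium), THY1 (12734), COL1A2 (3312), COL5A2 (2816), COL6A3 (1376), S100A4 (896), POSTN (282) and LOX (131). LUM, DCN, COL3A1, PDGFRB and FAP were at the floor on at least 1 array. The summed signal of the 13 was 33407 in complete medium, 31263 without leucine and 34770 without lysine. Whether these signals, that of THY1 among them, came from such cells or from the stem cells was not tested. Nor was the part of such cells in the differences below. Of 6 markers of liver and muscle, ACTA1 alone was above the floor on all arrays. In bulk RNA, fewer cells of a type and less RNA per cell cannot be told apart.

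**Figure D1:**
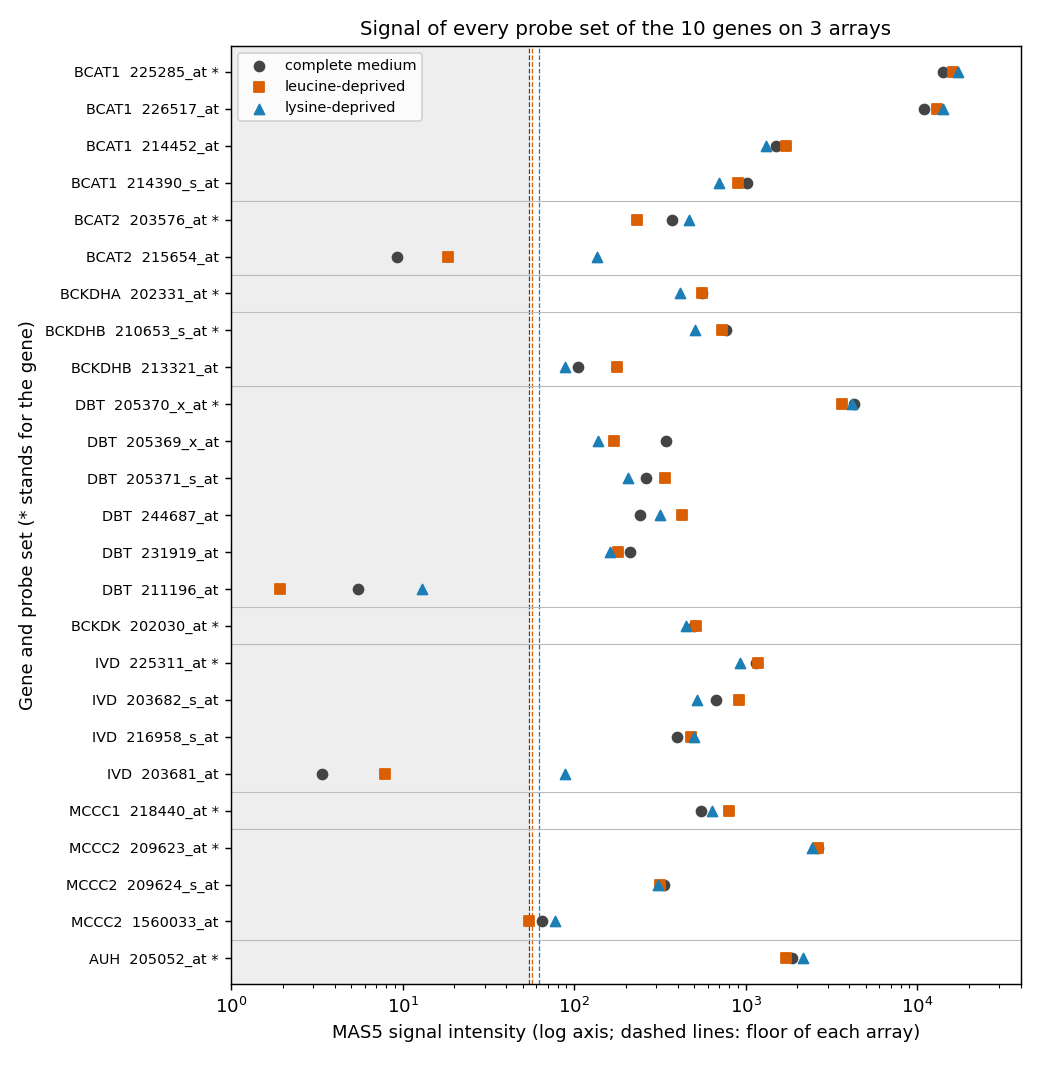
Signal of each of the 25 probe sets (rows, grouped by gene) on the complete-medium (circles), leucine-deprived (squares) and lysine-deprived (triangles) arrays, on a log axis. The grey area and the dashed lines mark the floor; for most probe sets the 3 symbols nearly overlap, and BCAT2 203576_at is one where they do not, at 373, 233 and 467.

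BCAT1, the cytosolic transaminase, is read by 4 probe sets. The probe set that stands for it (225285_at) had a signal of 14075 in complete medium, 16230 without leucine and 17295 without lysine. The next (226517_at) read 11015, 12960 and 14041. On both, complete medium was lowest, and the differences were 0.21 and 0.23 after leucine removal and 0.30 and 0.35 after lysine removal. The other probe sets did not follow them after lysine removal. There 214452_at read 1495, 1711 and 1312 and differed from complete medium by 0.19 and -0.19, and 214390_s_at read 1019, 897 and 696 and differed by -0.18 and -0.55. The mean over its probe sets was -0.02 after lysine removal, so the direction for this gene rests on which probe set is read.

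The start regions of BCAT1 and ASNS can be set side by side, because both hold a match to TGATGNAAN, the C/EBP-ATF response element through which ATF4 acts on amino acid response genes, while the signals of the genes differed in size of change. The regions run from 250 bases before to 50 bases after a transcript start, from RefSeq on GRCh38.p14. Capitals mark a match to TGATGNAAN, or to CACGTG, the E-box read by MYC and MondoA family factors. BCAT1 lies on the minus strand, and the region shown is chr12:24949052-24949351. That of ASNS, also on the minus strand, is chr7:97872359-97872658. MCCC1, the member highest after leucine removal at the probe sets that stand for the genes, is shown for its E-box. Not all of its 3 start regions hold this match. A link between the E-box and the difference in signal was not tested. The MCCC1 region shown lies on the minus strand at chr3:183099447-183099746.
BCAT1: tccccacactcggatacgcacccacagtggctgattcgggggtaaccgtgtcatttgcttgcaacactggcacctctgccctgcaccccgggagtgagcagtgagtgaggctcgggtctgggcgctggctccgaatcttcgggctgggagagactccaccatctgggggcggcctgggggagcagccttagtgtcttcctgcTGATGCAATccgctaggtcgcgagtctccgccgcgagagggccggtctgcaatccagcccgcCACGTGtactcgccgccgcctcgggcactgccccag
ASNS: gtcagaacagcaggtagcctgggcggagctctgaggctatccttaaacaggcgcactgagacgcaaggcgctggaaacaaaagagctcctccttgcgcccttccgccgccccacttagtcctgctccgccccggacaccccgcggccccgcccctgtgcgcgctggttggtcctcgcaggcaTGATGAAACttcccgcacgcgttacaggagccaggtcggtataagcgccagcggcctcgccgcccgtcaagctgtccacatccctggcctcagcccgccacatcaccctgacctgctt
MCCC1: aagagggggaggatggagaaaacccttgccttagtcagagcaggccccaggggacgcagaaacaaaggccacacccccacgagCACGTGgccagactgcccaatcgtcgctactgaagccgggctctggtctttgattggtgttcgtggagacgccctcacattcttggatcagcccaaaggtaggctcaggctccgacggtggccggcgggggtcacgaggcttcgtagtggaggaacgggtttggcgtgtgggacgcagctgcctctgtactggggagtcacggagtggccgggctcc

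The match in BCAT1 reads TGATGCAAT and begins at position -48 from the start of the transcript, and the match in ASNS reads TGATGAAAC and begins at position -68. ASNS was 1.29 higher after leucine removal and 1.36 higher after lysine removal, and BCAT1 differed by 0.21 and 0.30. Start regions were found for 9 of the 10 genes; BCAT2 had none in the table. On both strands, TGATGNAAN was found in 1 of these 9 genes (in 1 of the 5 BCAT1 start regions), and in 4.45% of the 27303 genes with a region of the same length. CACGTG was found in 3 of the 9 (BCAT1, MCCC1 and MCCC2) and in 8.78% of all genes. Of the 28 other pathway genes listed below, 24 had a region and 0 of them held either motif; of the check genes, DDIT3 and TRIB3 held no match in this window. The motifs do not overlap in the regions shown, and a match is a run of letters, not a measured binding site.

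BCAT2, the mitochondrial transaminase, had the widest differences of the 10 genes after leucine removal and between the deprivations, though not after lysine removal. This ranking holds for the probe sets that stand for the genes. After leucine removal, other kept probe sets of DBT (-1.02 and 0.82) and BCKDHB (0.76) differed more. The kept probe set of BCAT2 (203576_at) had a signal of 373 in complete medium, 233 without leucine and 467 without lysine. The leucine-deprived array was lowest and the lysine-deprived array highest. The log2 difference was -0.68 after leucine removal, which made BCAT2 the 1 of 10 genes past 1.5-fold there (18.7% of all genes passed). It was 0.32 after lysine removal and -1.00 between the leucine- and lysine-deprived arrays. This last difference lies at the 2-fold threshold, and BCAT2 was the 1 of 10 genes past it, where 8.44% of all genes passed. Median centring, cyclic loess normalization and an offset of 32 in place of the floor each put it inside 2-fold (the smallest value over all settings was -0.88), while its sign held in all of them. At 1.5-fold BCAT2 was again the 1 of 10 genes past the threshold between the deprivations, as were 21.4% of all genes. The probe set lies at the 35.9th percentile of kept genes by level. Among genes below the median level 16.5% passed 2-fold between the deprivations, and among those at or above it 0.37%.

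A second BCAT2 probe set (215654_at) did not pass the filter, with signals of 9.29, 18.4 and 135. It was above the floor on the lysine-deprived array alone, at least 2.48-fold over complete medium. By Euclidean distance in the pair of differences from complete medium, the genes nearest to BCAT2 among those of like level were THTPA (0.02), FBLN2 (0.04), FAAP24 (0.04), LIME1 (0.06) and IFT70B (0.06). Of 4103 genes within 1 log2 unit of its level, 61 lay within 0.25 of it. This likeness rests on 3 arrays that share the complete-medium control.

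The E1 subunits of the ketoacid dehydrogenase were lower on the lysine-deprived array than on both others. BCKDHA (E1 alpha, 202331_at, its only probe set) had a signal of 557 in complete medium, 554 without leucine and 415 without lysine. The first pair of values nearly coincided, a difference of -0.01, and the lysine-deprived value was lower by -0.42. BCKDHB (E1 beta, 210653_s_at) read 765, 724 and 504, differences of -0.08 and -0.60. It was 1.52-fold lower after lysine removal and was then the 1 of the 10 genes past 1.5-fold, where 25.7% of all genes passed. The other BCKDHB probe set (213321_at) read 105, 177 and 88.9, and so differed by 0.76 after leucine removal and by -0.23 after lysine removal. Both of its probe sets were thus lowest without lysine, but they disagreed on leucine.

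DBT, the E2 core onto which the other subunits assemble, is read by 6 probe sets that gave no common answer. The brightest (205370_x_at) read 4305, 3650 and 4192, differences of -0.24 and -0.04. Its suffix marks probes that can bind other transcripts. Another of this kind (205369_x_at) read 344, 169 and 137, and differed by -1.02 and -1.33, past 2-fold both times. It was the 1 of the 21 kept probe sets past 2-fold after either removal, where 7.6% of all kept probe sets passed after leucine and 11.2% after lysine removal. In contrast 244687_at read 242, 427 and 315, and differed by 0.82 and 0.38. For 205371_s_at the signals were 262, 338 and 207, and for 231919_at 212, 181 and 161. The last probe set (211196_at) was below the floor on all 3 arrays, at 5.51, 1.94 and 13.0. After leucine removal the 5 kept DBT probe sets ran from -1.02 to 0.82, a range wider than any other gene of the 10 showed, and without the probe sets marked as shared or cross-hybridising DBT would stand at 0.82 in place of -0.24.

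Over the E1 and E2 genes, 7 of 8 kept probe sets of BCKDHA, BCKDHB and DBT lay below 0 after lysine removal (median -0.37). After leucine removal 5 of 8 did (median -0.04). Among all kept probe sets, 11572 of 23015 lay below 0 after lysine removal and 11341 of 22997 after leucine removal (medians -0.00 and 0.01). Of the 8 probe sets, 5 are those of DBT, and all come from 3 genes and 1 RNA sample per condition. The E3 subunit, DLD, is outside this count. Its kept probe sets ran from 0.03 to 0.35 after lysine removal and from -0.12 to 0.21 after leucine removal. Probe sets at opposite ends of the ACTB transcript, whose ratio of 3′ to 5′ signal is a sign of RNA integrity, gave 5.44 in complete medium, 7.55 without leucine and 11.2 without lysine, and those of GAPDH gave 1.08, 1.23 and 1.25; the part of RNA quality in the lower signals was not tested.

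BCKDK, the kinase that inactivates the complex, hardly differed. Its only probe set (202030_at) read 499 in complete medium, 510 without leucine and 449 without lysine, differences of 0.03 and -0.15. The phosphatase that opposes it, PPM1K, read 316, 464 and 494 (226773_at), with complete medium lowest. The differences were 0.55 and 0.65, and their sign was the same in all settings tried. The settings of the floor and of the filter could hardly change it. Its other kept probe sets read 175, 238 and 373 (235061_at) and 43.9, 198 and 134 (244011_at), so all 3 were lowest in complete medium. For 244011_at complete medium lay at the floor, which makes the differences bounds of at least 1.86 and 1.29. The difference of 235061_at after lysine removal, 1.09, was past 2-fold, as were 11.2% of all kept probe sets. All these PPM1K differences share 1 complete-medium array.

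**Figure D2:**
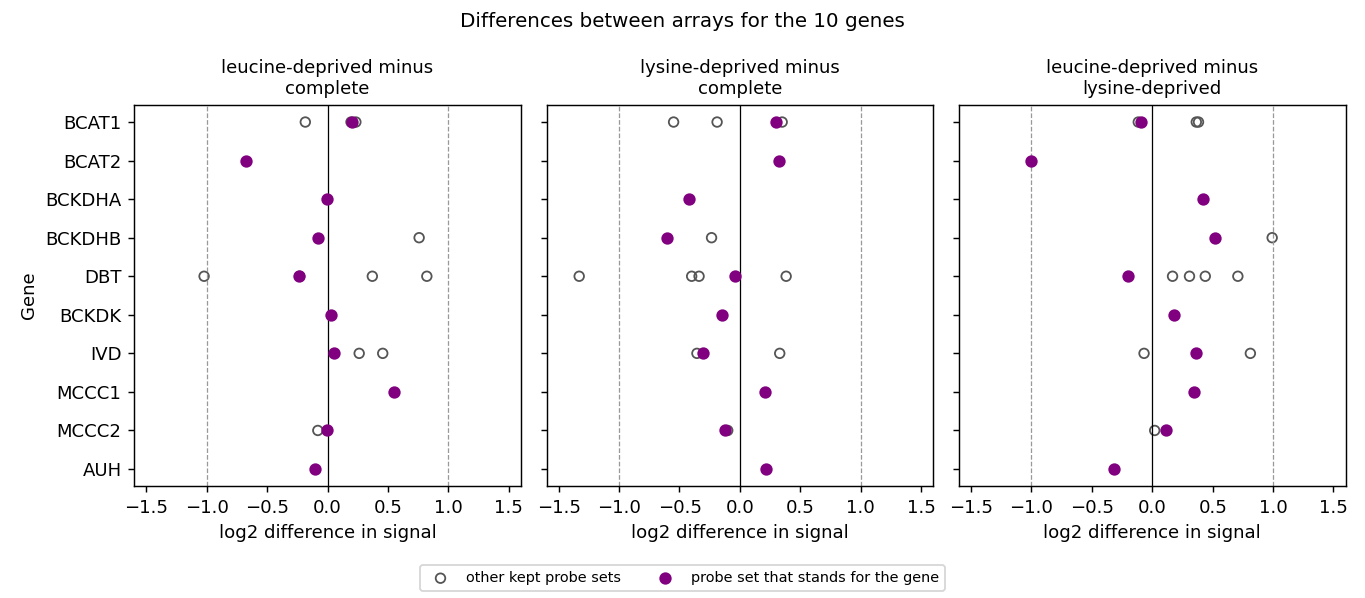
Log2 difference in signal for each of the 10 genes (rows) in the 3 comparisons (panels). Filled points are the probe set that stands for the gene, open points its other kept probe sets, and dashed lines mark 2-fold; BCAT2 reaches the line at -1.00 in the right panel, and the DBT probe sets spread from -1.02 to 0.82 in the left one.

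Of the enzymes particular to leucine, MCCC1 had the largest difference after leucine removal. MCCC1, the biotin-carrying subunit of methylcrotonyl-CoA carboxylase, has 1 probe set (218440_at), which read 548 in complete medium, 802 without leucine and 632 without lysine. The leucine-deprived array was highest, by 0.55 (1.46-fold) over complete medium and by 0.34 over the lysine-deprived array. After lysine removal the difference was 0.21, which turned to -0.04 under median centring. MCCC2, the other subunit of the same enzyme, was level: 209623_at read 2632, 2620 and 2421, and 209624_s_at read 332, 314 and 310. All 4 differences of these probe sets from complete medium lay between -0.12 and -0.01. The last MCCC2 probe set (1560033_at) was dim, with signals of 64.8, 54.2 and 77.3.

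IVD, which takes isovaleryl-CoA to methylcrotonyl-CoA, read 1143 in complete medium, 1185 without leucine and 924 without lysine (225311_at), differences of 0.05 and -0.31. A second probe set (203682_s_at) read 669, 918 and 522, in the same order of arrays, with differences of 0.46 and -0.36. The third (216958_s_at) read 399, 479 and 502, and so was highest without lysine. A dim one (203681_at) read 3.40, 7.86 and 88.8, above the floor on the lysine-deprived array alone. All 3 kept IVD probe sets were above complete medium after leucine removal (0.05, 0.46 and 0.26), though the first became -0.08 under median centring, and they split after lysine removal. AUH, which hydrates methylglutaconyl-CoA and also binds AU-rich RNA, read 1850, 1725 and 2143 (205052_at). It differed by -0.10 after leucine removal and by 0.21 after lysine removal, the latter -0.04 under median centring.

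Set directly against each other, the leucine-deprived array lay above the lysine-deprived array for 6 of the 10 genes: BCKDHB (0.52), BCKDHA (0.42), IVD (0.36), MCCC1 (0.34), BCKDK (0.18) and MCCC2 (0.11). It lay below for BCAT2 (-1.00), AUH (-0.31), DBT (-0.20) and BCAT1 (-0.09), where the signs of DBT and BCAT1 changed with the probe set read and that of BCAT1 under median centring. Of all genes, 52.0% lay above 0 in this comparison. The median was 0.15 over the 10 genes and 0.02 over all genes. Counted by probe set, 15 of the 21 kept lay above 0 (71.4%), as did 52.1% of all kept probe sets. Each of these differences but that of BCAT2 was smaller than the SD of 0.58 between probe sets of a gene. BCKDHB, IVD, MCCC1 and AUH lie at or above the median level of kept genes. They exceeded the SD of 0.29 taken over genes with several probe sets at that level. MCCC1 and AUH have 1 probe set each, and the other probe set of BCKDHB lies below that level. MCCC1, AUH and BCKDHB therefore did not enter that SD, which does not cover differences between cultures.

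**Figure D3:**
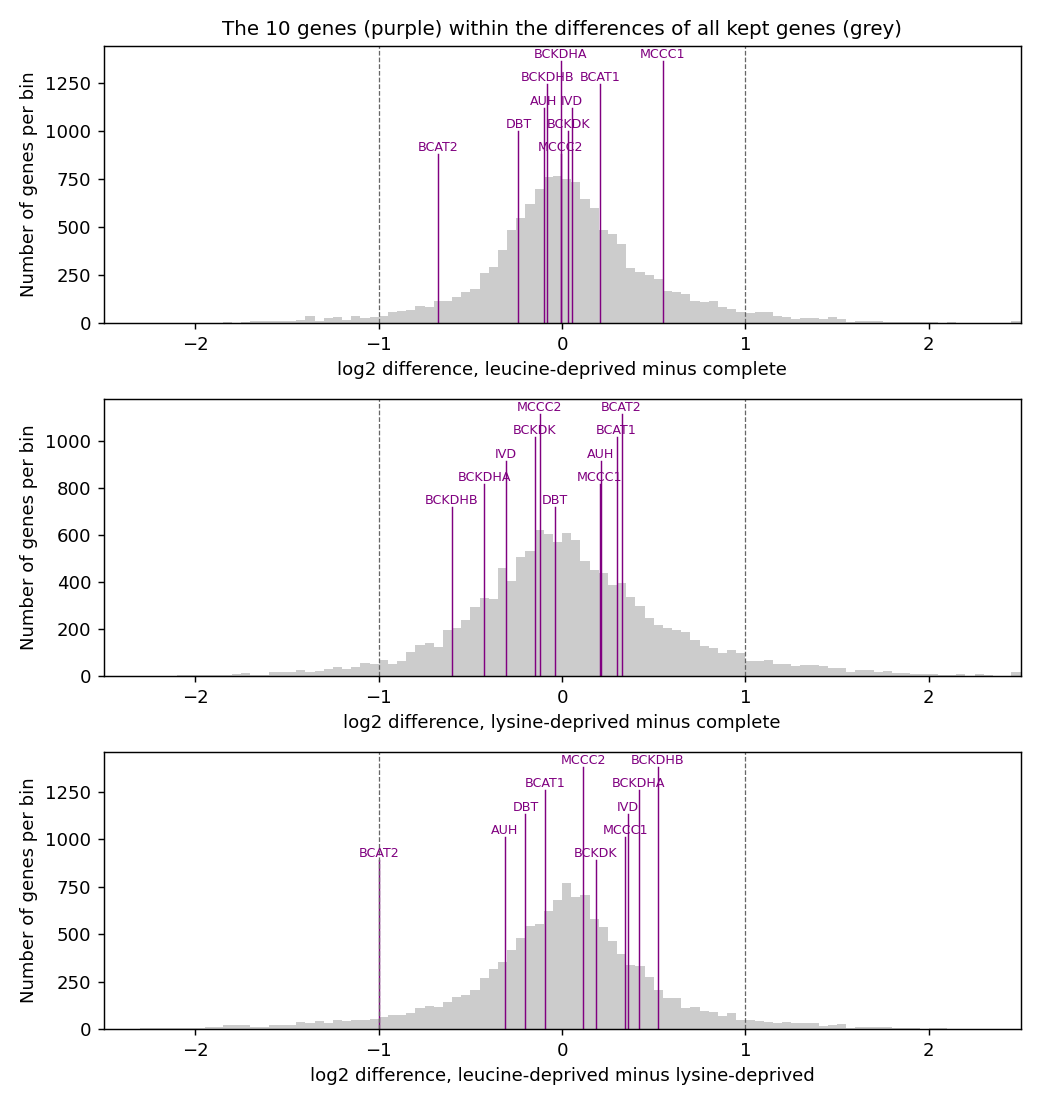
Distribution of the log2 difference over all kept genes (grey, bins of equal width, with values past the axis counted in the end bins) in the 3 comparisons, with the 10 genes as purple lines; line height has no meaning and dashed lines mark 2-fold. From the top panel to the bottom one, the farthest out of the 10 genes are BCAT2 at -0.68, BCKDHB at -0.60 and BCAT2 at -1.00. Among all genes these values lie at percentiles 6.06, 10.2 and 4.85.

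Of 28 other listed genes of branched-chain amino acid breakdown, 26 were measured, and 0 of 26 passed 2-fold in either direction after leucine removal (6.41% of all genes) or lysine removal (9.47%). After lysine removal MMAA (-0.89) passed it under median centring (-1.14), quantile (-1.02) and cyclic loess normalization (-1.02), and PPM1K with the mean of its probe sets (1.01). The median difference of the 26 was 0.06 after leucine removal, with 16 above 0, and 0.00 after lysine removal, with 13 above 0. Of all genes, 51.6% and 50.4% lay above 0. By the mean size of both differences, ETFDH, HLCS, MMAA and PPM1K stood first. ETFDH, which passes the electrons from IVD and related dehydrogenases to ubiquinone, read 205 in complete medium, 326 without leucine and 350 without lysine, and its second probe set 195, 352 and 280. Both were lowest in complete medium. HLCS, the ligase that attaches biotin to carboxylases such as MCCC1, read 118, 179 and 208, differences of 0.60 and 0.81. This probe set is dim, at the 19.5th percentile of kept genes by level. The other HLCS probe set did not pass the filter. It read 22.4, 124 and 12.8, above the floor on the leucine-deprived array alone.

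Between the deprivations, 3 of the 26 passed 2-fold, beside 8.44% of all genes. ACADSB, the isoleucine-branch acyl-CoA dehydrogenase, read 410, 306 and 663, and was lower without leucine than without lysine by -1.11. Its other probe set read 425, 303 and 316, a difference of -0.06, and the gene stood inside 2-fold with the mean of both (-0.59) and at the line under median centring. BDH1, which interconverts the ketone bodies, read 493, 653 and 307, higher without leucine by 1.09, and its other kept probe set was also higher, by a bound of 0.89, the value of the gene without shared probe sets; the mean of both was 0.99. MMAA, which helps load the cobalamin cofactor of methylmalonyl-CoA mutase, read 256, 324 and 138, higher without leucine by 1.23. Its other kept probe sets measured on either array differed by 1.02 and, as a bound, by -1.67, and with the mean of its probe sets the gene stood at 0.19.

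**Figure D4:**
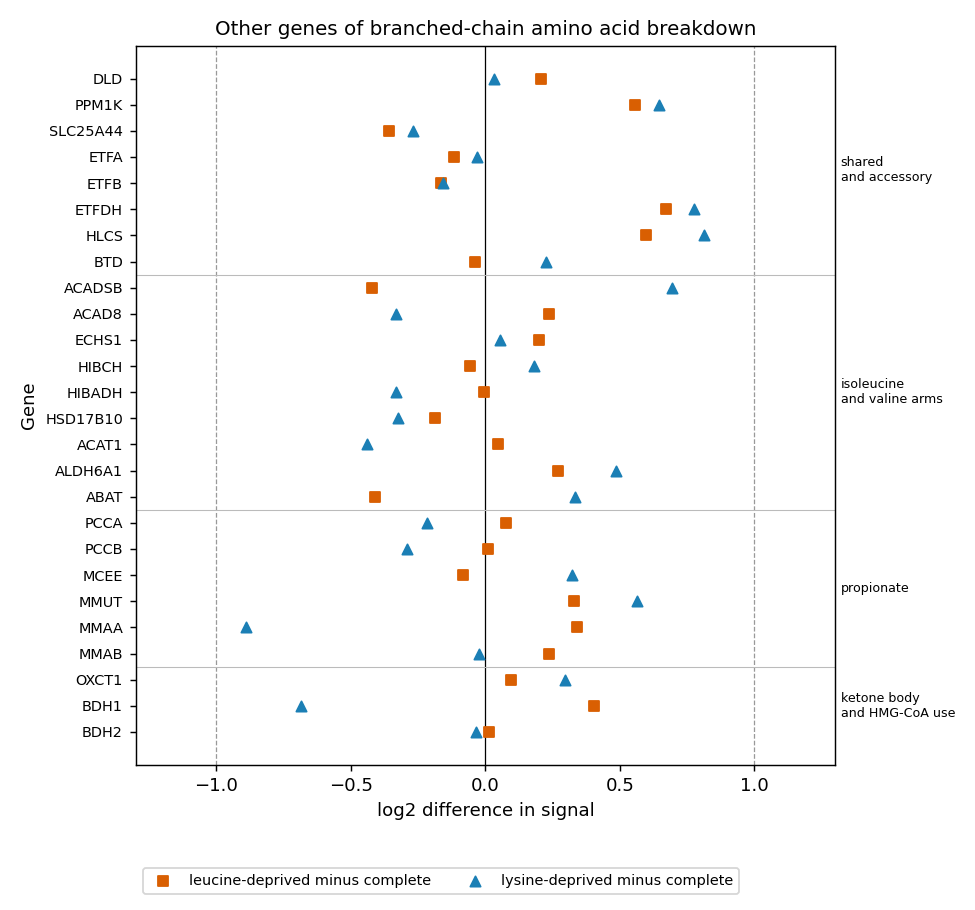
Log2 difference from complete medium for the 26 other pathway genes (rows, grouped by role) after leucine (squares) and lysine (triangles) removal; both share the complete-medium array. All symbols lie inside the dashed 2-fold lines, from -0.89 (MMAA, lysine) to 0.81 (HLCS, lysine).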

How the data were processed

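RNA from khES3 cells was hybridised to 1 array per condition. The authors deposited intensity values on a linear scale, 1 per probe set, which per the submitters' processing notes came from MAS5; its version, settings and detection calls were not stated there. The mean after trimming 2% at either end was 500.1 on each array, so the deposited intensities share a scale, which hides any difference in total mRNA. Gene names come from the platform annotation: of 54613 probe sets that are not controls, 41091 name 1 gene, 1801 several and 11721 none. Each value was floored at its array's 40th percentile and taken to log2. Differences with 1 array at the floor are bounds, and with both there no difference was taken. Percentages past 2-fold include bounds.

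The members and lists were chosen with earlier results of these data known. Named were all 10 genes, of the other pathway genes those past 2-fold in a comparison and the 4 with the largest mean absolute difference, the 5 genes nearest to the member that differed most, and ASNS, DDIT3 and TRIB3. Alternatives were 3 normalizations, 3 treatments of the floor, 2 level filters, 2 choices of probe set and 2 thresholds. The calculations were tested on simulated arrays. Python 3.11.15, numpy 2.4.6, pandas 2.3.3, R 4.3.3 and limma 3.58.1 (cyclic loess) did the calculations. Precision is limited by the number of arrays.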

Additional observations from a re-analysis of the deposited data

How the results depend on the processing

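Median differences of the 10 genes ran from -0.14 to 0.04 over the alternatives for leucine removal, from -0.33 to 0.04 for lysine removal and from 0.13 to 0.27 between the deprivations. Median centring moved the median of all genes by -0.13, -0.25 and 0.12 in these comparisons; relative to all genes the 10 lay at -0.02, -0.08 and 0.13, as without centring. At 1.5-fold, 1 gene passed after leucine removal (BCAT2) and 1 after lysine removal (BCKDHB). Between the deprivations the count of 1 past 2-fold became 0 under median centring, cyclic loess, the offset of 32 without a floor, and a 3-fold threshold. Without probe sets marked as shared or cross-hybridising, BCKDHB stood at 0.76 and DBT at 0.82 after leucine removal, and DBT at 0.44 between the deprivations. Over single genes of the 10, 16 of 300 values changed sign, none with a size above 0.30 in the main setting. All 16 fell under the 3 normalizations and the 2 choices of probe set. The floor treatments and level filters could hardly change a sign, as the probe sets of the 10 genes lay above the floor and passed the filter. The 300 values are therefore not 300 checks of sign. For PPM1K, ETFDH, HLCS, ACADSB, MMAA, BDH1 and the 3 check genes the alternatives were added after seeing the data: MMAA became -0.72 after leucine removal with the mean of its probe sets, and those of the others that crossed 2-fold stand beside their values. TRIB3, 3.80 and 3.75 higher after leucine and lysine removal, became 2.78 and 2.15 with that mean. No paired analysis was possible because each condition has 1 array. Dim signals limit what could be measured: 4 of the 25 probe sets did not pass the filter.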
